A study of Rattus norvegicus with 325 samples.

Results

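Small leucine-rich proteoglycans (SLRPs) were described through 8 genes, Dcn, Bgn, Aspn, Fmod, Lum, Prelp, Omd and Ogn, taken by symbol from the gene lines of each count file. They are 8 of 17315 symbols and stand on 11 gene lines, since Aspn, Omd and Ogn are each listed on 2. Bulk RNA sequencing covered 325 libraries from 4 muscles (tibialis anterior, soleus, gastrocnemius and diaphragm) of male rats of the outbred Sprague Dawley strain, aged 6, 9 or 12 months and then 18, 21, 24 or 27 months. Each of the 28 groups of 1 muscle and 1 age held 9 to 13 libraries, and library totals ran from 17.6 to 85.3 M counts (median 31.9 M). All animals of an age were dissected on 1 day, and an effect of that day cannot be told apart from age. The labels do not tie a library to an animal, so p-values measure the spread between these libraries. The label numbers form 3 series of unstated meaning. All gastrocnemius libraries carry the first series, so that muscle and series cannot be told apart in comparisons with it, and the 12-month libraries of the other muscles, with 1 library each at 21 months, carry the third.

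SLRPs are secreted proteins of the extracellular matrix, built of a core of leucine-rich repeats to which chondroitin, dermatan or keratan sulfate chains can be attached. They bind fibrillar collagen and help to set the thickness and spacing of its fibrils, and several also bind growth factors of the TGF-beta family. In skeletal muscle they are made mainly by fibroblasts of the connective tissue around fibres and fascicles and by cells of the tendon and its junction with muscle.

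Members of the family share gene neighbourhoods. In the RefSeq gene table (build GRCr8), Ogn, Omd and Aspn follow each other within the span of Cenpp, Dcn lies beside Lum, Prelp and Fmod are separated by uncharacterised loci, and Bgn is apart on chromosome X. RefSeq promoter entries matched 5 of the 8 members, the others being Dcn, Bgn and Prelp. The 250 bases before a transcript start are shown for Ogn and Omd, neighbours whose levels varied closely together across libraries, and for Fmod, the member that declined in the gastrocnemius as others rose. They are chr17:15258996-15259245 (minus strand) for Ogn, chr17:15274871-15275120 (minus strand) for Omd and chr13:48045317-48045566 (plus strand) for Fmod, each written 5′ to 3′ along its gene. Capitals mark matches on either strand to a core TATA box motif with the letters TATAAA. They also mark the Smad box, written GTCTG, and the AP-1 motif, for which TGANTCA was searched.
Ogn: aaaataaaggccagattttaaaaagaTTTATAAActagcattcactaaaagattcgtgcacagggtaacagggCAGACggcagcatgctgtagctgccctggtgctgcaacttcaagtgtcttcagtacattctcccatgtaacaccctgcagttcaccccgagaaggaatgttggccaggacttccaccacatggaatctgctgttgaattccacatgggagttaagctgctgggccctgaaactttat
Omd: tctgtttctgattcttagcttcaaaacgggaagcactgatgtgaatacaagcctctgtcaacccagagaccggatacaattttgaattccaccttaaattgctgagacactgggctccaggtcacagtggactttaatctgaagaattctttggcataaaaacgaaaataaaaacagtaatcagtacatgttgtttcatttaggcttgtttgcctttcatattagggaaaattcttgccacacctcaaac
Fmod: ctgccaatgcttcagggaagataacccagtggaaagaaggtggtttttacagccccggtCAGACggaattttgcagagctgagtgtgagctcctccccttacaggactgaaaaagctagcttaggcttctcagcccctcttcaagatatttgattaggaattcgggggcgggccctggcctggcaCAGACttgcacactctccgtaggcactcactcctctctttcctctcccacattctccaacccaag
The Ogn stretch held 1 Smad box, 177 bases before the start, and 2 overlapping TATAAA matches, 1 on each strand, 222 and 224 bases before it. The Fmod stretch held 2 Smad boxes, 191 and 65 bases before the start, the Lum stretch held 3, and the Omd and Aspn stretches held none of the 3 motifs. Of 33469 promoter entries of the same length, 42.9% held GTCTG, 12.9% TATAAA and 6.34% TGANTCA, beside a Smad box in 3 of the 5 stretches and a TATAAA match in 1.

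Levels are CPM, counts divided by library size after scaling by the trimmed mean of M values (TMM), given as lowest, median and highest over the libraries of a group, and they are compared between groups and not between genes, whose lengths differ. A gene was called when limma-voom with Benjamini-Hochberg adjustment gave an adjusted p under 0.05 with more than 1.5-fold between the groups, and log2 changes carry their standard error (SE). All 8 members passed the low-count filter in every muscle. In bulk tissue, fewer cells of a type and less RNA per cell cannot be told apart.

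At 6 months the members were lowest in the tibialis anterior, a largely fast muscle of the shin, except Ogn, which was lowest in the gastrocnemius. All 8 were called lower in the tibialis anterior than in the diaphragm, the main breathing muscle (22.4% of 12784 genes were called lower), and all 8 lower than in the soleus, a slow calf muscle (24.1% of genes). Against the gastrocnemius, a largely fast calf muscle, 3 were called lower in the tibialis anterior (10.7% of genes). Those were Dcn, with a log2 difference of -0.81 (SE 0.08, adjusted p = 2.67e-18), Fmod at -2.67 (SE 0.25, adjusted p = 2.62e-21) and Prelp at -1.72 (SE 0.13, adjusted p = 1.18e-28). The gastrocnemius was called lower than the diaphragm for Bgn, Aspn, Lum, Omd and Ogn (20.8% of genes were called lower) and higher for Fmod (16.5% higher).

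Fmod set the gastrocnemius apart. Its product, fibromodulin, binds collagen I and is abundant in tendon. At 6 months Fmod ran from 296 to 412 CPM with a median of 333 in the gastrocnemius and from 111 to 325 CPM with a median of 222 in the soleus. It ran from 18.0 to 204 CPM with a median of 136 in the diaphragm and from 25.1 to 86.7 CPM with a median of 59.3 in the tibialis anterior. The gastrocnemius libraries overlapped those of the soleus and lay above every diaphragm and tibialis anterior library. The soleus was called lower than the gastrocnemius at -0.67 (SE 0.25, adjusted p = 0.01), 1 member against 21.3% of genes, a call that ended with total-count scaling (-0.28), with sample quality weights (-0.57) and with Bonferroni adjustment.

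Aspn, Omd and Prelp were highest in the soleus. Asporin, the product of Aspn, binds collagen and TGF-beta, and osteomodulin, the product of Omd, is a keratan sulfate proteoglycan best known from mineralised tissue. Aspn at 6 months ran from 46.1 to 70.7 CPM with a median of 64.2 in the soleus and from 25.7 to 37.0 CPM with a median of 28.2 in the diaphragm. It ran from 5.47 to 11.6 CPM with a median of 8.05 in the gastrocnemius and from 4.92 to 11.2 CPM with a median of 8.03 in the tibialis anterior. The soleus and diaphragm ranges overlapped neither each other nor those of the fast muscles, while the gastrocnemius and the tibialis anterior did not differ beyond their spread (-0.02, SE 0.19, adjusted p = 0.943). The soleus stood above the diaphragm for Aspn by 1.09 (SE 0.12, adjusted p = 8.67e-16), and for Omd by 0.51 (SE 0.11, adjusted p = 1.99e-05), which is under 1.5-fold. Called higher in the soleus than in the diaphragm were 2 members, Aspn and Fmod (10.1% of genes), and higher than in the gastrocnemius 5 (24.1%).

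Dcn, Bgn, Lum and Ogn had their highest mean in the diaphragm, with the soleus next. The soleus differed from the diaphragm by -0.15 (SE 0.13, adjusted p = 0.331) for Bgn and -0.17 (SE 0.15, adjusted p = 0.328) for Ogn, within their spread. For Dcn the difference was -0.27 (SE 0.08, adjusted p = 0.00205) and for Lum -0.37 (SE 0.10, adjusted p = 0.000904), both under 1.5-fold. For Prelp the gastrocnemius and the diaphragm did not differ beyond their spread (0.16, SE 0.12, adjusted p = 0.25), nor did the soleus and the gastrocnemius (0.19, SE 0.12, adjusted p = 0.154).

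**Figure D1:**
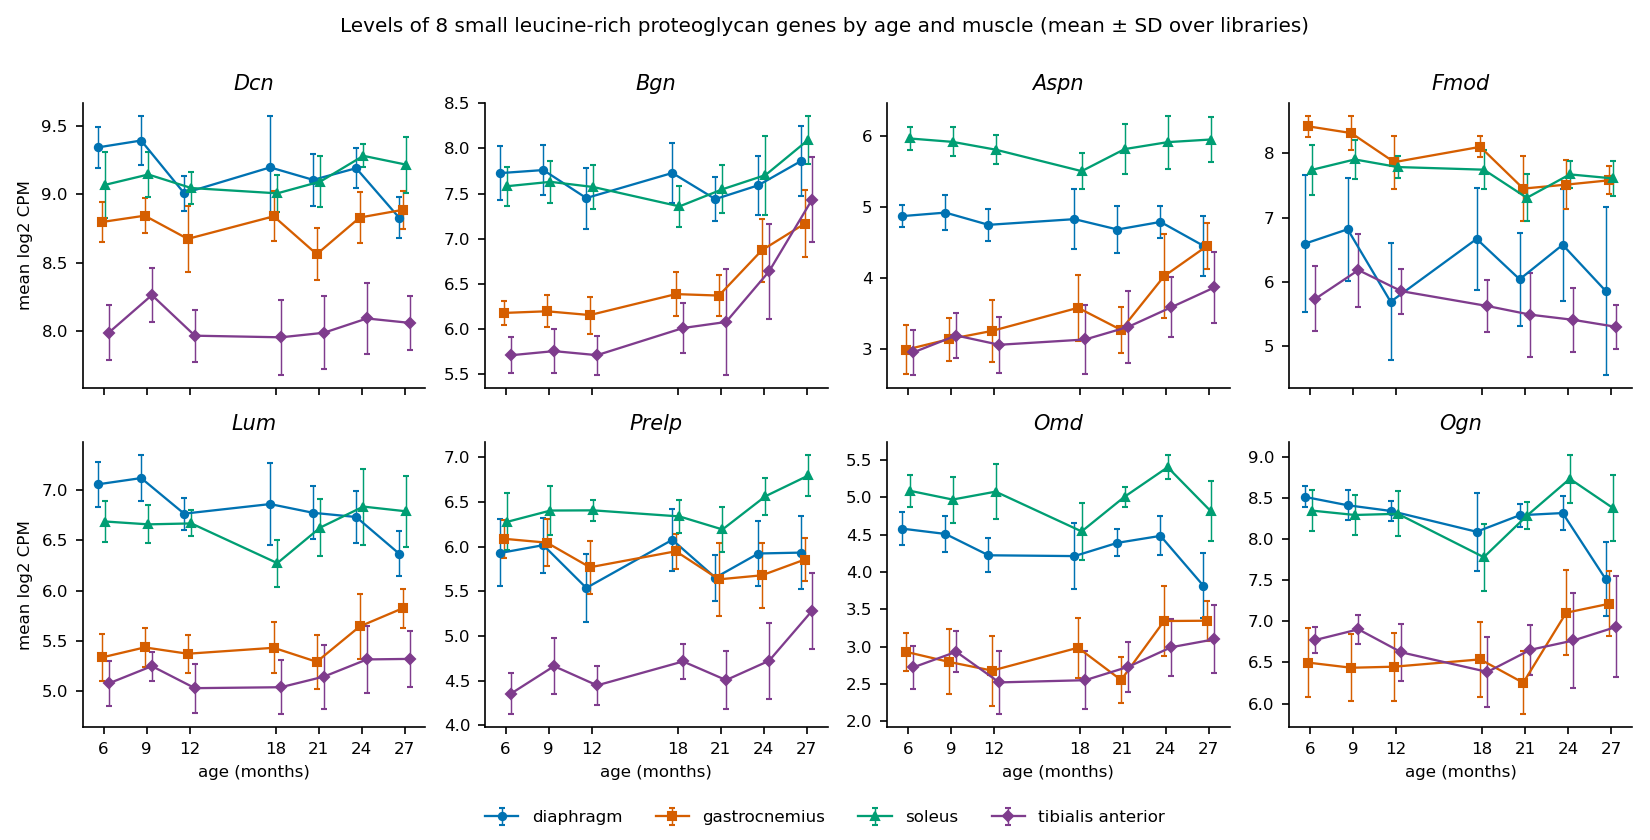
Mean log2 CPM (points) and SD (bars) over the 9 to 13 libraries of each group, for the 8 genes against age in months, with 1 line for each muscle. Bgn stands higher at 24 and 27 months in the gastrocnemius and the tibialis anterior, Aspn rises in the same muscles, Fmod declines in the gastrocnemius, and Ogn and Omd drop in the diaphragm between 24 and 27 months.

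At 27 months the members had changed in different directions in different muscles. Of the 8, 3 rose and 1 fell in the gastrocnemius, where 15.1% of 11865 genes were called higher and 7.76% lower. In the tibialis anterior 3 rose and none fell, where 17.2% of 11754 genes were called higher and 10.4% lower. In the diaphragm 3 fell and none rose, against 4.25% of 12035 genes called lower and 3.27% higher. In the soleus limma-voom called none, against 9.21% of 12175 genes called higher and 5.78% lower, although Dcn, Bgn, Prelp and Omd had an adjusted p under 0.05 at less than 1.5-fold. Total-count scaling called 2 members higher in the soleus, Bgn (0.68) and Prelp (0.68). That scaling raised the median change of all genes by 0.28 in the gastrocnemius, 0.15 in soleus, 0.32 in tibialis anterior and 0.04 in diaphragm. The median log2 change over the 8 members was 0.47 for the gastrocnemius, 0.31 for the tibialis anterior, 0.08 for the soleus and -0.64 for the diaphragm, beside medians over all genes tested of 0.04, 0.02, 0.02 and 0.00.

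**Figure D2:**
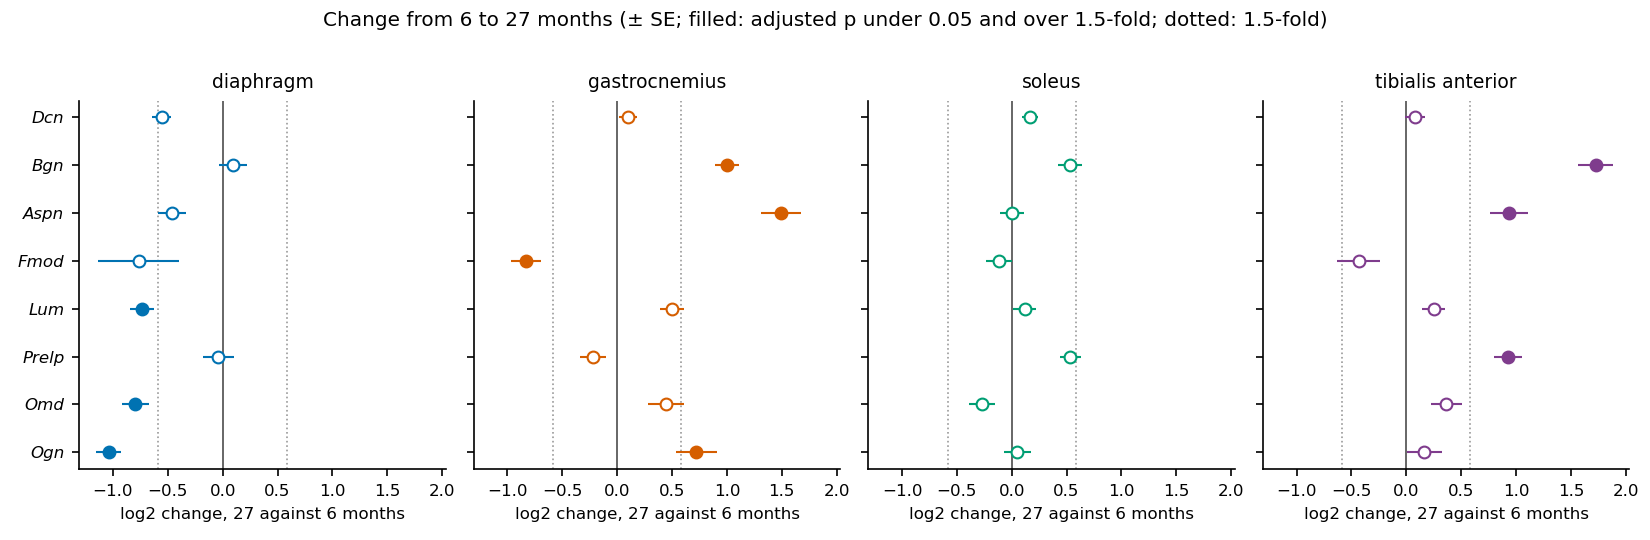
Log2 change from 6 to 27 months with its standard error for each of the 8 genes in each of the 4 muscles. Filled points are called and dotted lines mark 1.5-fold. Bgn in the tibialis anterior (1.72) and Aspn in the gastrocnemius (1.49) are the largest rises and Ogn in the diaphragm (-1.04) the largest fall.

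Calls began late. No member was called against 6 months at 9 months, where 0.108%, 0.143%, 0.123% and 0.00851% of genes were called (in the order diaphragm, gastrocnemius, soleus, tibialis anterior), or at 12 months, where 0.532%, 0.885%, 0.353% and 0.196% were. In the diaphragm and the soleus none was called before 27 months, with 2.25% and 2.84% of genes called at 18 months, 1.68% and 2.61% at 21 months and 2.68% and 6.51% at 24 months, and in the tibialis anterior none at 18 (5.45%) or 21 months (6.47%). For so few members, no call is near those shares, so these counts do not date the onset of a change. At 18 months 1 was called, Aspn in the gastrocnemius (3.63% of genes higher), at 21 months 1, Fmod in the gastrocnemius (1.53% lower), and at 24 months 3 higher and 1 lower in the gastrocnemius (11.4% and 7.41% of genes) and 2 higher in the tibialis anterior (10.9%). Genes were termed age-related when called at any age and fitted better by a linear or logistic course than by a constant one, by the Bayesian information criterion (BIC). By that rule 4 members were age-related in the gastrocnemius (23.3% of genes), 3 in each of the tibialis anterior (26.8%) and the diaphragm (6.7%), and none in the soleus (12.6%).

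Biglycan, the product of Bgn, carries chondroitin or dermatan sulfate chains, binds TGF-beta and the dystrophin-associated complex of the fibre membrane, and takes part in the stability of the neuromuscular junction through the kinase MuSK. In the tibialis anterior Bgn ran from 39.2 to 62.9 CPM with a median of 52.3 at 6 months and from 81.6 to 248 CPM with a median of 188 at 27 months. Every library at 27 months lay above every library at 6 months. The rise was 3.31-fold (log2 change 1.72, SE 0.16, adjusted p = 1.74e-16).

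Bgn also rose in the gastrocnemius. Its libraries ran from 60.3 to 80.3 CPM with a median of 73.0 at 6 months and from 94.1 to 261 CPM with a median of 148 at 27 months, again with no overlap. The log2 change was 1.00 (SE 0.11, adjusted p = 2.56e-12). In the soleus the medians were 197 CPM (131 to 225) and 275 CPM (193 to 344), and all 12 libraries at 27 months lay above the 6-month mean. That change of 0.53 (SE 0.11, adjusted p = 4.29e-05) was under 1.5-fold. In the diaphragm the value was 0.10 (SE 0.13, adjusted p = 0.571), with medians of 194 CPM (171 to 303) and 246 CPM (137 to 332).

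The rise of Bgn was called at 24 months in the gastrocnemius (0.70, SE 0.11, adjusted p = 3.15e-07) and the tibialis anterior (0.92, SE 0.16, adjusted p = 5.52e-07), and at no earlier age. Between 24 and 27 months it rose by a further 0.80 (SE 0.16, adjusted p = 2.73e-05) in the tibialis anterior, the 1 member called in that step, where 4.17% of genes were called higher. Prelp joined it without the libraries that stood apart (0.68), with sample quality weights and with total-count scaling. In the gastrocnemius the same step was 0.29 (SE 0.11, adjusted p = 0.111). BIC gave both a late-logistic course, a step placed after 21 months, with inflections at 25.25 months in the gastrocnemius and 27 months, the last age, in the tibialis anterior.

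Asporin rose in the same muscles as biglycan. In the gastrocnemius Aspn ran from 5.47 to 11.6 CPM with a median of 8.05 at 6 months and from 17.3 to 34.1 CPM with a median of 21.5 at 27 months. The groups did not overlap, and the rise was 2.81-fold (log2 change 1.49, SE 0.18, adjusted p = 6.7e-11). In the tibialis anterior the medians were 8.03 CPM (4.92 to 11.2) and 15.1 CPM (8.55 to 23.6), and 8 of 12 old libraries lay above the highest 6-month library. That rise was 0.94 (SE 0.17, adjusted p = 1.39e-06), and with the first of its 2 gene lines alone it was 1.43.

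BIC gave Aspn a linear rise in both muscles. It had reached the call by 24 months in the gastrocnemius (1.02, SE 0.19, adjusted p = 7.59e-06) and the tibialis anterior (0.67, SE 0.17, adjusted p = 0.000615), and was also called at 18 months in the gastrocnemius (0.59, SE 0.19, adjusted p = 0.0248). Without 4 libraries that stood apart from their groups, the tibialis anterior call at 24 months was lost (0.58), as was the one at 18 months (0.52). In the soleus the medians were 64.2 and 62.8 CPM and the change was near 0 (SE 0.11, adjusted p = 0.993). In the diaphragm the change of -0.46 (SE 0.13, adjusted p = 0.0023) was under 1.5-fold, with 9 of 12 libraries below the lowest 6-month library.

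Decorin, the product of Dcn, binds collagen and TGF-beta and carries a single chondroitin or dermatan sulfate chain. Dcn in the diaphragm ran from 528 to 753 CPM with a median of 662 at 6 months and from 395 to 597 CPM with a median of 455 at 27 months, and 11 of 12 old libraries lay below the lowest 6-month library. The log2 change was -0.55 (SE 0.09, adjusted p = 1.24e-07), just under 1.5-fold. In the other muscles the ranges overlapped broadly, with medians at 6 and 27 months of 436 and 455 CPM in the gastrocnemius, 554 and 617 in the soleus and 266 and 263 in the tibialis anterior. Their log2 changes were 0.10, 0.17 and 0.08. Dcn was called at no age in any muscle.

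The ratio of Bgn to Dcn had a higher mean at 27 months in each muscle. Its log2 value in the tibialis anterior was -2.28 ± 0.22 (SD, n = 12) at 6 months and -0.63 ± 0.40 (SD, n = 12) at 27 months, ranges that did not overlap. In the gastrocnemius it was -2.62 ± 0.26 (SD, n = 10) and -1.72 ± 0.35 (SD, n = 11), again without overlap. In the soleus it was -1.49 ± 0.11 and -1.12 ± 0.34, and in the diaphragm -1.62 ± 0.23 and -0.97 ± 0.35 (SD, n = 12 in each). These ratios are descriptions with no test.

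**Figure D3:**
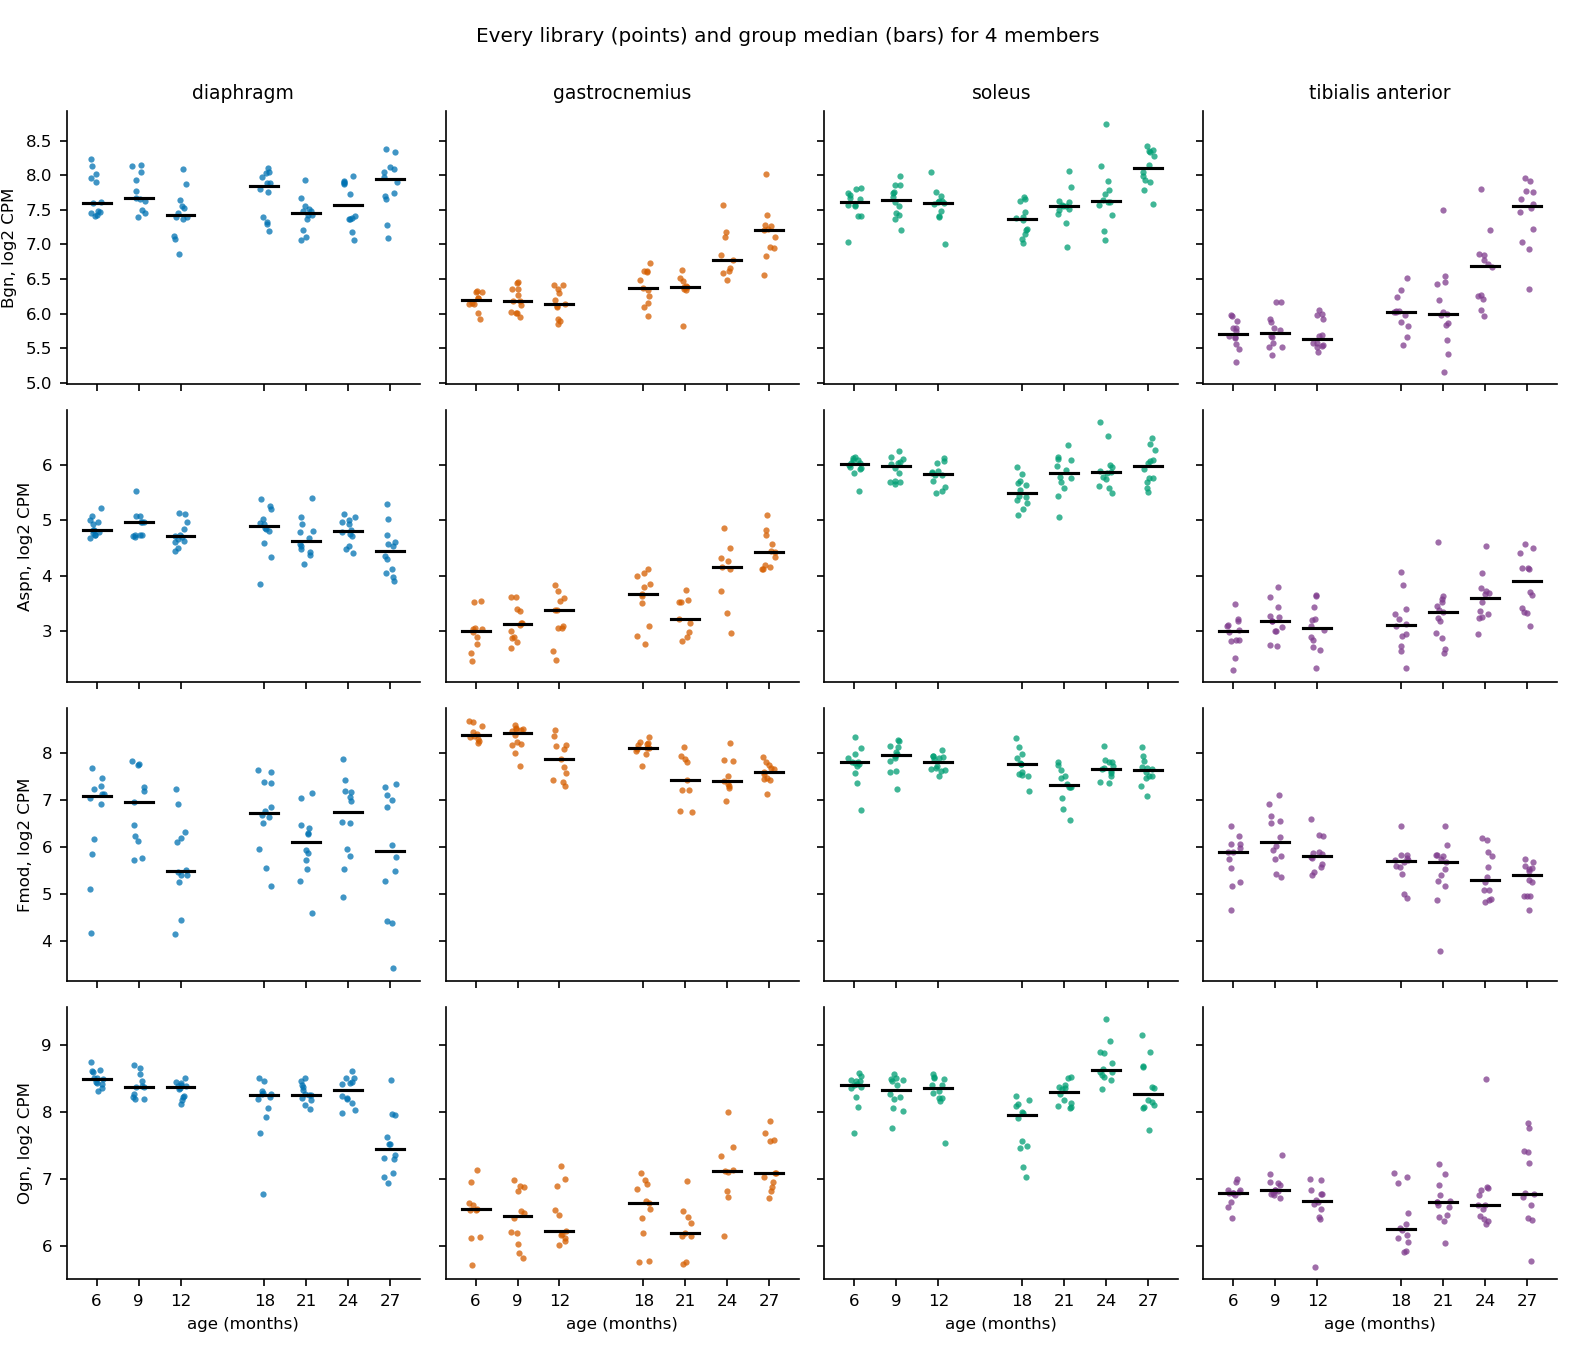
Log2 CPM of Bgn, Aspn, Fmod and Ogn in every library (points) against age in months for each muscle, with the group medians as bars. The 27-month libraries clear the 6-month libraries upward for Bgn in the gastrocnemius and tibialis anterior and for Aspn in the gastrocnemius, and downward for Fmod in the gastrocnemius. Fmod in the diaphragm scatters from 10.7 to 232 CPM.

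Fibromodulin went the other way in the gastrocnemius. Fmod ran there from 296 to 412 CPM with a median of 333 at 6 months and from 139 to 242 CPM with a median of 194 at 27 months, with no overlap. The fall was 1.78-fold (log2 change -0.83, SE 0.14, adjusted p = 2.32e-07). Total-count scaling left it at -0.55, under 1.5-fold. Ranges that did not overlap between 6 and 27 months were found for 3 members in the gastrocnemius, Bgn, Aspn and Fmod (14.1% of genes), for Bgn in the tibialis anterior (20.2%), and for none in the soleus (5.64%) or the diaphragm (2.85%).

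Fmod was called lower in the gastrocnemius at 21 months (-0.98, SE 0.14, adjusted p = 2.83e-07) and 24 months (-0.90, SE 0.14, adjusted p = 1.69e-07). Its largest step was between 18 and 21 months (-0.66, SE 0.14, adjusted p = 0.00749), the 1 member called there against 0.143% of genes, a call that edgeR did not give (-0.58). BIC preferred a linear decline. In the tibialis anterior the change at 27 months was -0.44 (SE 0.19, adjusted p = 0.037), under 1.5-fold, with 11 of 12 libraries below the 6-month mean. In the soleus it was -0.12 (SE 0.12, adjusted p = 0.43), a value that total-count scaling turned to 0.03.

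In the diaphragm Fmod varied more between libraries than any other member. Its SD on the log2 scale was 1.07 at 6 months and 1.30 at 27 months, where those of the other 7 members ran from 0.13 to 0.38 and from 0.17 to 0.48. At 27 months it ran from 10.7 to 162 CPM with a median of 60.6, and the change of -0.77 (SE 0.37, adjusted p = 0.0836) did not pass the test. The summed level of 7 tendon cell markers, mostly Thbs4, also ranged widely, from 127 to 784 CPM at 6 months and from 109 to 582 CPM at 27 months. The part of tendon tissue in these values was not tested.

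Prelp, whose product binds collagen and heparan sulfate and links basement membrane to the matrix, rose in the tibialis anterior. It ran there from 14.7 to 27.3 CPM with a median of 20.7 at 6 months and from 24.7 to 58.7 CPM with a median of 40.2 at 27 months. All 12 old libraries lay above the 6-month mean and 10 above the highest 6-month library. The rise was 1.90-fold (log2 change 0.93, SE 0.13, adjusted p = 6.74e-10), with a late-logistic course and an inflection at 25 months.

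In the soleus Prelp had medians of 82.2 CPM (42.4 to 98.9) and 107 CPM (84.3 to 144), and the change of 0.53 (SE 0.09, adjusted p = 9.83e-07) was under 1.5-fold. In the gastrocnemius it was -0.22 (SE 0.12, adjusted p = 0.096), which total-count scaling turned to 0.06, and in the diaphragm -0.04 (SE 0.14, adjusted p = 0.846). The log2 ratio of Prelp to Fmod was -1.38 ± 0.38 at 6 and -0.02 ± 0.34 at 27 months in the tibialis anterior, -1.46 ± 0.16 and -0.81 ± 0.22 in the soleus and -2.33 ± 0.11 and -1.72 ± 0.20 in the gastrocnemius (SD, n = 10 to 12). In the diaphragm it was -0.66 ± 0.73 and 0.07 ± 0.94. The mean ratio was higher at 27 months in all 4 muscles, in the diaphragm by less than the SD at that age.

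Lumican, the product of Lum, is a keratan sulfate proteoglycan known from the collagen of the cornea. In the diaphragm Lum ran from 99.4 to 156 CPM with a median of 139.7 at 6 months and from 72.2 to 125 CPM with a median of 78.9 at 27 months. Of the 12 old libraries, 11 lay below the lowest 6-month library. The fall was 1.66-fold (log2 change -0.73, SE 0.11, adjusted p = 4.98e-08), and BIC gave a linear decline. In the gastrocnemius Lum had medians of 42.4 CPM (29.3 to 48.7) and 54.0 CPM (47.9 to 73.7), and the change of 0.50 (SE 0.11, adjusted p = 5.25e-05) was under 1.5-fold and past it with total-count scaling (0.78). The values were 0.12 (SE 0.11, adjusted p = 0.365) in the soleus and 0.25 (SE 0.11, adjusted p = 0.0316) in the tibialis anterior.

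Osteoglycin, the product of Ogn and the one member of class III, is also known as mimecan and acts in collagen fibril assembly. Ogn in the diaphragm ran from 319 to 433 CPM with a median of 363 at 6 months and from 123 to 357 CPM with a median of 175 at 27 months. All 12 old libraries lay below the 6-month mean and 11 below the lowest 6-month library. The fall was 2.06-fold (log2 change -1.04, SE 0.12, adjusted p = 1.79e-11), the largest among the members in any of the 4 muscles.

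Omd fell beside Ogn in the diaphragm. Its libraries ran from 17.8 to 31.1 CPM with a median of 24.5 at 6 months and from 8.42 to 25.3 CPM with a median of 14.3 at 27 months. The fall was 1.73-fold (log2 change -0.79, SE 0.13, adjusted p = 2.69e-07), with 10 of 12 libraries below the lowest 6-month library. Between 24 and 27 months Ogn changed by -0.85 (SE 0.12, adjusted p = 1.95e-08) and Omd by -0.71 (SE 0.13, adjusted p = 6.5e-06), the 2 members called in that step against 3.51% of genes called lower. BIC put the inflections at 26.25 months for Ogn and 27 months, the last age, for Omd.

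The soleus step from 24 to 27 months was called for Omd and not for Ogn. Omd there had a median of 42.3 CPM (36.4 to 51.5) at 24 months and 26.9 CPM (18.1 to 45.3) at 27 months. The change of -0.59 (SE 0.12, adjusted p = 3.15e-05) was just past 1.5-fold, 1 member against 1.55% of genes, and edgeR, DESeq2 and total-count scaling put it under that fold (-0.54, -0.55 and -0.50). Ogn in the soleus had medians of 396 CPM (327 to 673) and 311 CPM (212 to 568), a change of -0.35 (SE 0.12, adjusted p = 0.0193). Both genes had their highest median of the 7 ages in the soleus at 24 months. Against 6 months the changes at 27 months were -0.27 (SE 0.12, adjusted p = 0.0446) for Omd and 0.05 (SE 0.12, adjusted p = 0.751) for Ogn.

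In the gastrocnemius the direction was opposite. Ogn ran there from 52.4 to 141 CPM with a median of 94.1 at 6 months and from 105 to 235 CPM with a median of 136 at 27 months. The ranges overlapped, all 11 old libraries lay above the 6-month mean, and the rise was 1.65-fold (log2 change 0.72, SE 0.19, adjusted p = 0.000662). With sample quality weights it was 0.52 and no longer called. Between 21 and 24 months Ogn rose by 0.87 (SE 0.20, adjusted p = 0.00069), Omd by 0.78 (SE 0.18, adjusted p = 0.000753) and Aspn by 0.76 (SE 0.19, adjusted p = 0.00166), the 3 neighbouring genes being the 3 members called in that step, against 4.22% of genes called higher. For Omd the change from 6 to 27 months was 0.44 (SE 0.16, adjusted p = 0.0156) in the gastrocnemius and 0.36 (SE 0.14, adjusted p = 0.0185) in the tibialis anterior, both under 1.5-fold and both past it with total-count scaling (0.72 and 0.68).

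Ogn in the tibialis anterior had similar medians and a wider range. It ran from 85.9 to 128 CPM with a median of 111 at 6 months and from 55.1 to 229 CPM with a median of 110.3 at 27 months, with 3 old libraries below and 5 above the whole 6-month range. Its change was 0.16 (SE 0.16, adjusted p = 0.357), while the SD of log2 CPM was 0.15 at 6 and 0.62 at 27 months. In the diaphragm the SD of Ogn was 0.13 and 0.48. The SD was larger at 27 than at 6 months for 22 of the 32 pairs of member and muscle, 8 of 8 in the diaphragm, 6 in the tibialis anterior, 5 in the soleus and 3 in the gastrocnemius, where 67.4%, 79.8%, 69.9% and 44.1% of all genes tested had a larger SD.

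Whether the 6-to-27-month change differed from muscle to muscle was tested as interactions over all 325 libraries. Against the diaphragm, 6 members changed more positively in the gastrocnemius (13.8% of 12784 genes were called that way), 6 in the tibialis anterior (13.3%) and 3 in the soleus (6.3%), and none changed more negatively. The 3 in the soleus were Dcn (0.66, SE 0.12, adjusted p = 4.76e-07), Lum (0.79, SE 0.15, adjusted p = 1.76e-06) and Ogn (1.03, SE 0.21, adjusted p = 1.54e-05), and total-count scaling made that count 5. Dcn in the tibialis anterior against the diaphragm, at 0.58 (SE 0.11, adjusted p = 2.9e-06), was just under 1.5-fold and passed it with the replicate block (0.59), RLE scaling (0.62), sample quality weights (0.59), DESeq2 (0.62) and total-count scaling (0.91). The largest contrasts with the diaphragm were those of Aspn (1.90, SE 0.22, adjusted p = 8.02e-15) and Ogn (1.71, SE 0.21, adjusted p = 6.5e-13) in the gastrocnemius and of Bgn (1.58, SE 0.18, adjusted p = 1.73e-14) in the tibialis anterior. Since these contrasts share the diaphragm libraries, they are not separate evidence.

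Among the limb muscles, the change of Bgn was larger in the tibialis anterior than in the soleus (1.20, SE 0.18, adjusted p = 4.42e-09) and the gastrocnemius (0.73, SE 0.19, adjusted p = 0.00112). Prelp differed likewise from the gastrocnemius (1.15, SE 0.18, adjusted p = 8.5e-08). In all, 3 members changed more positively in the tibialis anterior than in the soleus (10.3% of genes), the others being Aspn (0.94) and Omd (0.64), and 2 more than in the gastrocnemius (2.27%). In the soleus against the gastrocnemius, Aspn (-1.50), Omd (-0.71) and Ogn (-0.68) changed more negatively (9.64% of genes) and Prelp more positively (0.75; 4.82%). For Fmod no muscle pair was called, and the widest difference was 0.71 (SE 0.35, adjusted p = 0.0892), so its fall in the gastrocnemius was not shown to differ from its change elsewhere.

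At 27 months the order of muscles by mean was another for the members except Aspn and Omd. The soleus had the highest mean for all 8 members, where at 6 months it did so for 3. Its lead was within the spread for Bgn over the diaphragm (0.23, SE 0.13, adjusted p = 0.107) and for Fmod over the gastrocnemius (0.03, SE 0.24, adjusted p = 0.906). All 8 were still called lower in the tibialis anterior than in the soleus (15.9% of genes). Called lower in the tibialis anterior than in the diaphragm were 4, Dcn, Lum, Prelp and Omd (15.1%; 7 with total-count scaling). Fmod, at -0.57 (SE 0.24, adjusted p = 0.0255) just under 1.5-fold, passed it with the replicate block (-0.62), sample quality weights (-0.65), total-count scaling (-0.69), edgeR (-0.97) and DESeq2 (-0.97). Called lower than in the gastrocnemius were 2, Dcn and Fmod (7.61%; 4 with the first gene line alone). The soleus was called higher than the gastrocnemius for 6 members (15.5%) and higher than the diaphragm for 5 (12.2%). Against the diaphragm, the gastrocnemius was called lower for Bgn (-0.70, SE 0.13, adjusted p = 6.63e-07) and higher for Fmod (1.70, SE 0.24, adjusted p = 2.56e-11), beside 15.7% and 16.6% of genes. The highest muscle exceeded the lowest 8.10-fold for Aspn at 6 months and 4.25-fold at 27 months, 4.05-fold and 1.91-fold for Bgn, and 6.41-fold and 4.95-fold for Fmod.

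The make-up of SLRP transcripts differed between the ages. Shares of the members' summed CPM are compared here between ages only, since longer transcripts collect more counts. In the tibialis anterior the sum had a median of 562 CPM (388 to 668) at 6 months and 709 CPM (514 to 983) at 27 months. The share of Bgn there was 9.64% (7.46 to 12.1) and 25.3% (15.9 to 29.7), without overlap, and that of Dcn 47.3% (40.7 to 50.8) and 37.1% (32.4 to 46.5). In the gastrocnemius the sums had medians of 1079 and 1055 CPM, while the share of Fmod was 31.1% (27.3 to 38.2) and 17.2% (13.8 to 23.3) and that of Bgn 6.81% (4.87 to 7.55) and 12.3% (9.78 to 18.9), both without overlap. In the diaphragm the sum was 1572 CPM (1234 to 1877) and 1094 CPM (854 to 1692), and the share of Ogn had medians of 22.6% and 15.8%. The soleus sums had medians of 1607 and 1701 CPM.

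Across libraries of 1 muscle, after the mean of each age was removed, Fmod and Prelp varied together, as did Omd and Ogn. These correlations are descriptions over 83 diaphragm, 73 gastrocnemius, 84 soleus and 85 tibialis anterior libraries, and both values of a point share a library and its depth. In that order of muscles, Fmod with Prelp gave an r of 0.92, 0.86, 0.79 and 0.69, Omd with Ogn 0.80, 0.86, 0.82 and 0.85, and Dcn with Lum 0.90, 0.73, 0.58 and 0.75. Fmod with Ogn gave 0.22, -0.09, 0.28 and 0.50, and Prelp with Ogn 0.18, -0.15, 0.41 and 0.70. The first pair was thus little related to Ogn in the gastrocnemius and more so in the tibialis anterior.

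**Figure D4:**
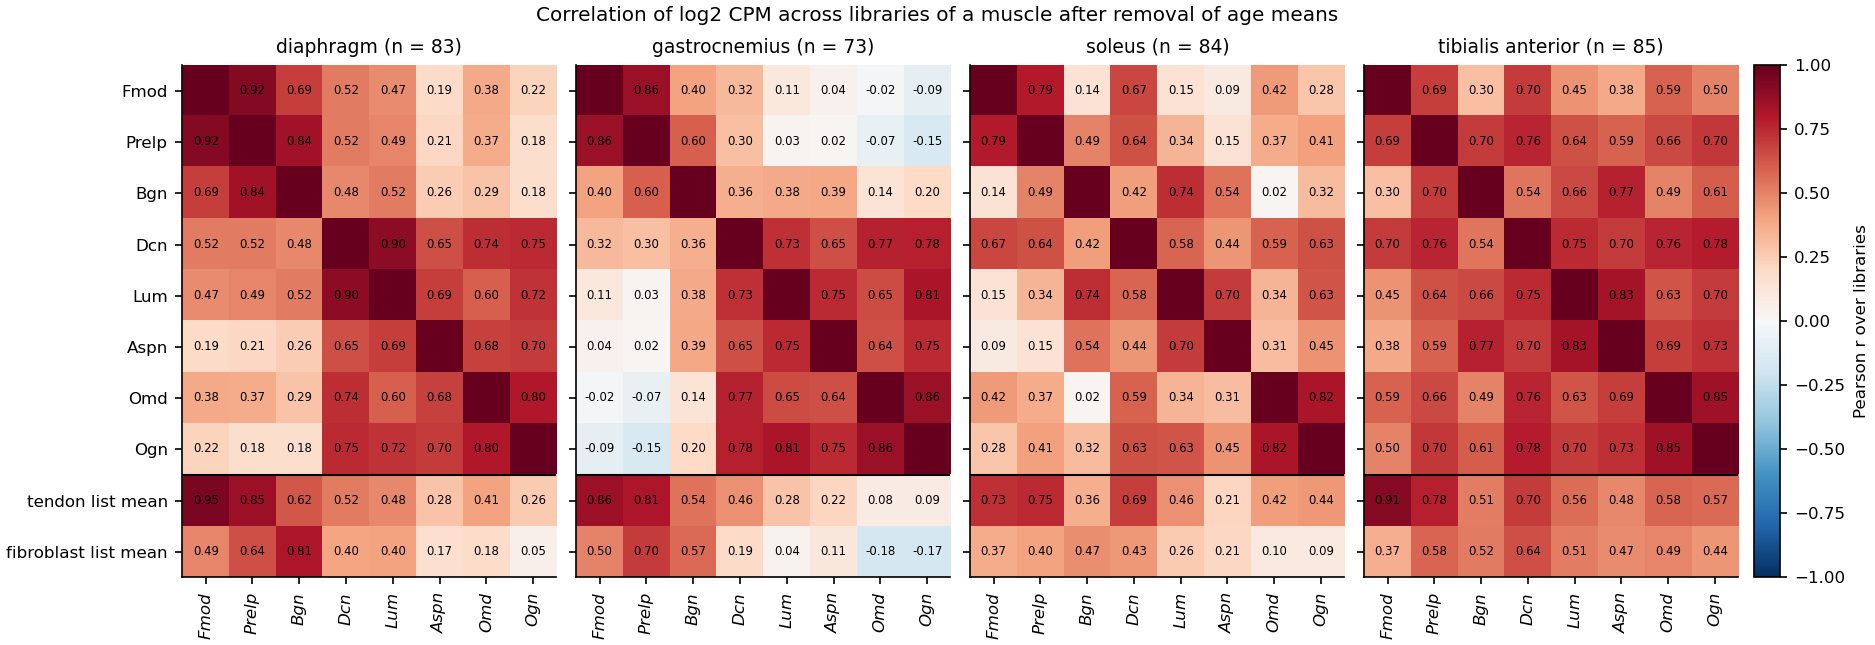
Pearson r of log2 CPM between members, and between members and the mean of marker lists, over the libraries of each muscle after age means were removed. Fmod and Prelp follow the tendon list (0.73 to 0.95), and Omd and Ogn follow each other (0.80 to 0.86).

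Markers of tendon cells went with Fmod and Prelp and, less closely, with Dcn and Bgn. The mean of 7 tendon genes correlated with Fmod at 0.95, 0.86, 0.73 and 0.91 and with Prelp at 0.85, 0.81, 0.75 and 0.78, with Dcn at 0.52, 0.46, 0.69 and 0.70, with Bgn at 0.62, 0.54, 0.36 and 0.51 and with Ogn at 0.26, 0.09, 0.44 and 0.57. For Dcn in the soleus and the tibialis anterior it thus came close to the values of Prelp. In the diaphragm Lum correlated with the tendon mean at 0.48, near Dcn. There the mean of the fibroblast list correlated with Bgn at 0.81, more closely than the tendon mean, and with Prelp at 0.64. The mean of mesothelial markers in the diaphragm correlated with Bgn at 0.62, as closely as the tendon mean, with Prelp at 0.57 and with Fmod at 0.43. That of macrophage markers correlated with Bgn at 0.46. Of the 7 tendon genes 3 were called lower at 27 months in each muscle, and 0, 1, 1 and 3 were called higher. Over all genes tested 4.25%, 7.76%, 5.78% and 10.4% were called lower and 3.27%, 15.1%, 9.21% and 17.2% higher. The single rises in the gastrocnemius and the soleus are near those shares. Kera, which encodes keratocan, an SLRP of cornea and tendon outside the 8 that was also counted among the other leucine-rich proteoglycans, fell in diaphragm (-2.28), gastrocnemius (-0.78), soleus (-1.20) and tibialis anterior (-1.04). Cilp2, a matrix gene of cartilage and tendon, fell too (-2.28, -1.86, -1.29 and -0.98). Thbs4, a thrombospondin of tendon and muscle, rose in the soleus (1.05) and the tibialis anterior (0.82). Scx (0.70) and Egr1 (1.04) of the list also rose in the tibialis anterior. The summed tendon level in the gastrocnemius was 616 to 923 CPM at 6 months and 553 to 1087 CPM at 27 months, with overlap. Most of that sum was Thbs4, with medians of 519 and 517 CPM beside 737 and 709 CPM for the sum. In that muscle Cilp2, Comp (-1.06) and Kera were called lower. The part of tendon tissue in the fall of Fmod was not tested.

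Fibroblast markers were counted in the same way. Of 9 genes of fibroblasts and fibro-adipogenic progenitors, 1 rose in the gastrocnemius (Pi16, 0.71), none was called in the soleus, and 1 fell in the diaphragm (Dpp4, -0.91), while of 8 tested in the tibialis anterior 2 rose (Pi16, 1.32, and Mfap5, 0.68). Of all genes 15.1% were called higher in the gastrocnemius, 17.2% higher in the tibialis anterior and 4.25% lower in the diaphragm, and counts of 1 or 2 genes are near those shares. Pdgfra, the receptor that marks these cells, had changes under 1.5-fold of -0.38, 0.19, 0.20 and 0.41 from diaphragm through gastrocnemius and soleus to tibialis anterior. The median over the genes tested was -0.15, 0.19, 0.15 and 0.37. Each muscle had genes of the list on both sides of 0, among them Pi16 in the diaphragm (0.25) and Thy1 in the gastrocnemius (-0.52). The summed list had a median of 577 CPM (485 to 783) at 6 and 787 CPM (573 to 926) at 27 months in the tibialis anterior. In the diaphragm it was 1252 CPM (1146 to 1355) and 1036 CPM (757 to 1202). Most of these sums was 1 gene of the list, Gsn. Its medians were 476 and 643 CPM in the tibialis anterior and 1037 and 833 CPM in the diaphragm, so the sums mainly follow Gsn. The part of fibroblast number in these results was not tested.

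Other cell types also moved with age. All 8 macrophage markers were called higher at 27 months in the gastrocnemius and the tibialis anterior, against 1 each in the soleus and the diaphragm, and all 6 adipocyte markers in the 3 limb muscles against none in the diaphragm. Over all genes tested 3.27%, 15.1%, 9.21% and 17.2% were called higher, from diaphragm through gastrocnemius and soleus to tibialis anterior. In that order the median log2 change of the macrophage list was 0.38, 0.92, 0.52 and 1.38. Soleus rises such as Csf1r (0.53, SE 0.10, adjusted p = 3.99e-06) and Mrc1 (0.51, SE 0.10, adjusted p = 1.66e-05) were under 1.5-fold. The summed macrophage level in the tibialis anterior ran from 43.5 to 68.3 CPM at 6 months and from 92.6 to 194 CPM at 27 months. Muscle fibre markers summed there to 206902 to 232699 CPM and 88386 to 202883 CPM. Myh4 had a large part in that sum, with medians of 87432 and 28896 CPM. Of the 7 fibre markers 3 were called lower there, Myh4 (-1.50), Myh7 (-1.07) and Ckm (-0.85), where 10.4% of all genes were. Myh1 (-0.07) and Myh2 (-0.11) changed little. Of 10 cartilage and bone markers 6 to 8 had medians under 1 CPM in each muscle at 6 and 27 months. None of 6 endothelial markers was called in any muscle, although their median log2 change was -0.27, -0.40, -0.18 and -0.30 from diaphragm through gastrocnemius and soleus to tibialis anterior. Tek was lower in each (-0.42, -0.41, -0.25 and -0.34), under 1.5-fold, while Vwf was higher in the tibialis anterior (0.21). The part of these cell types in the members' changes was not tested.

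Partners of the SLRPs were counted from lists written from general knowledge. Among 20 collagen fibril genes tested, 7 fell and none rose in the diaphragm, and the gastrocnemius had 2 rises and 6 falls, the soleus 1 rise and 2 falls and the tibialis anterior 3 rises and 2 falls. Over all genes tested the shares were 3.27% higher and 4.25% lower in diaphragm, 15.1% and 7.76% in gastrocnemius, 9.21% and 5.78% in soleus and 17.2% and 10.4% in tibialis anterior. The rises in gastrocnemius, soleus and tibialis anterior were near or below those shares. Col1a1, a chain of the main fibrillar collagen, had medians of 1195 and 328 CPM at 6 and 27 months in the gastrocnemius, a log2 change of -1.89 (SE 0.19, adjusted p = 2.12e-13). It also fell in the diaphragm (-1.51) and the soleus (-1.17). Bgn and Aspn thus rose in the gastrocnemius while Col1a1 fell. The median log2 change of this list was -0.42, -0.18, -0.09 and -0.12 in diaphragm, gastrocnemius, soleus and tibialis anterior in turn. Plod2, a collagen lysyl hydroxylase, was the largest riser of the list in the gastrocnemius (1.67), and Loxl1, a crosslinking oxidase, in the soleus (0.89) and tibialis anterior (1.72), where the prolyl hydroxylase P4ha1 had the largest fall (-1.18).

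Of 18 TGF-beta pathway genes tested, 7 rose in the tibialis anterior, 6 each in gastrocnemius and soleus and 1 in the diaphragm, and none fell, where 17.2%, 15.1%, 9.21% and 3.27% of all genes were called higher. The single gene of the diaphragm is near that share. Ltbp1, which anchors latent TGF-beta in the matrix, had medians of 52.6 and 245 CPM in the tibialis anterior, a rise of 2.26 (SE 0.15, adjusted p = 1.49e-22), and rose by 1.92 in the gastrocnemius and 1.42 in the soleus. The list's median was -0.05, 0.24, 0.35 and 0.32 in the same order. Among 17 receptors and cell surface partners, 5 rose and 1 fell in the gastrocnemius and in the tibialis anterior, 1 rose and 2 fell in the soleus, and 1 rose in the diaphragm. Over all genes tested 4.25%, 7.76%, 5.78% and 10.4% were called lower, from diaphragm through gastrocnemius and soleus to tibialis anterior. The single rises and single falls of this list are near or below the shares of all genes. The median of that list was -0.05, 0.30, 0.06 and 0.39. Musk, the kinase of the neuromuscular junction that biglycan binds, was the largest riser of this list in each muscle, at 3.82 for tibialis anterior, 3.25 for gastrocnemius, 1.73 for soleus and 0.84 for diaphragm. The largest falls were those of Kdr, a VEGF receptor, in gastrocnemius (-1.06) and tibialis anterior (-0.77) and of the purine receptor P2rx7 in the soleus (-0.95).

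Enzymes that build the sugar chains were called at shares near or below those of all genes. Of 22 tested, 3 rose in the tibialis anterior, the soleus had 2 rises and 1 fall, the gastrocnemius 1 of each and the diaphragm 1 fall, where 17.2%, 9.21% and 15.1% of all genes were called higher in the limb muscles and 4.25% lower in the diaphragm. Their median was -0.06, 0.02, 0.09 and 0.00, again from diaphragm to tibialis anterior. B3gnt7, which acts in keratan sulfate synthesis, was the largest riser in the soleus (3.11), the tibialis anterior (2.11) and the gastrocnemius (1.92), from medians of 1.18 to 1.92 CPM at 6 months. The largest falls were Csgalnact2 in the soleus (-0.79) and Dsel in the diaphragm (-0.75), of chondroitin and dermatan sulfate synthesis. Of 13 to 15 genes of SLRP processing and degradation tested, 3 rose and 2 fell in the tibialis anterior, 1 rose and 2 fell in the gastrocnemius, 2 rose and 2 fell in the diaphragm and 1 rose in the soleus. The median of those genes was -0.21, 0.03, 0.18 and 0.22. Over all genes tested 3.27%, 15.1%, 9.21% and 17.2% were called higher and 4.25%, 7.76%, 5.78% and 10.4% lower, from diaphragm to tibialis anterior. The tibialis anterior counts are near those shares. Timp1, a metalloproteinase inhibitor, rose by 1.53 in the tibialis anterior and 1.09 in the gastrocnemius. Of the other leucine-rich proteoglycan genes, 4 or 5 of which were tested, 2 fell in each muscle and 1 rose in the tibialis anterior and 1 in the soleus. These falls were above the shares called lower over all genes, though on few genes. Chad, whose product chondroadherin binds collagen, had the largest fall in the gastrocnemius (-1.22), and the median of its list was -1.61, -0.30, -0.29 and -0.17. Of 12 or 13 proteoglycans outside the family, 1 rose in the tibialis anterior, the soleus had 1 rise and 2 falls, the gastrocnemius 2 falls and the diaphragm no call, with medians of -0.11, 0.05, -0.12 and 0.12. The single rises were near or below the shares of all genes.

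The genes most like each member, by Pearson r over the 28 group means among 11509 genes, were Plagl1 (0.95), Rnase4 (0.95) and Sntb2 (0.95) for Dcn, Edem1 (0.98), Tctn1 (0.98) and Arf3 (0.98) for Bgn, Clic2 (0.99), Sepp1 (0.98) and Mid2 (0.98) for Aspn and Igfbp6 (0.96), Cd34 (0.95) and Loxl4 (0.94) for Fmod. They were Anxa1 (0.98), Colec12 (0.98) and Clmp (0.98) for Lum, Thbs2 (0.97), Mxra8 (0.97) and Pnp (0.97) for Prelp, Wipf1 (0.98), Dock11 (0.98) and RGD1563888 (0.98) for Omd and Cd48 (0.98), Dab2 (0.98) and Pld1 (0.98) for Ogn. Group means of 1 muscle share its standing level, so these values describe the pattern over muscles as well as over ages.

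Libraries that stood apart touched some values. In 4 libraries the median correlation with the others of their group was 0.925 to 0.964. The one of the diaphragm at 18 months (replicate 11) was the lowest of its group for 5 of the 8 members, and that of the gastrocnemius at 6 months (replicate 4) was the lowest for 5 and the highest for Prelp. In the tibialis anterior the one at 24 months (replicate 6) was the highest for 7 members and the one at 21 months (replicate 7) the highest for 5. Without these 4 libraries the number of members called at 27 months against 6 was still 3 for the diaphragm, 4 for the gastrocnemius, 0 for the soleus and 3 for the tibialis anterior, while the call of Ogn in the gastrocnemius at 24 months was lost (0.52 against 0.62).

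Values of Ogn, Omd and Aspn rest on sums over 2 gene lines. The lines of Omd were equal in 304 of 325 libraries, and the second line held a median of 20.2% of the counts of Ogn and 4.96% of those of Aspn. For Ogn this share was 3.36% in the gastrocnemius and 26.8% in the diaphragm. How reads were divided between lines is not given in the sources used here. With the first line alone, the changes at 27 months were -1.21 for Ogn and -0.80 for Omd in the diaphragm and 0.73 for Ogn and 1.55 for Aspn in the gastrocnemius. For Aspn at 27 months, the tibialis anterior against the gastrocnemius was -0.83 with the first line alone, a call, and -0.58 with the sum, under 1.5-fold.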

How the data were processed

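Muscles were kept in RNAlater, and strand-specific paired-end libraries were made after removal of ribosomal RNA. The authors aligned and counted reads in ArrayStudio against a rat reference named B6.0 with a RefSeq-based gene model, and deposited raw counts per gene line, 1 library per file. Each file had 17870 lines and 17315 symbols, and lines of 1 symbol were summed. Counts were filtered with filterByExpr (minimum count 10, minimum total 15), scaled by TMM (edgeR 4.0.16) and tested with limma-voom (limma 3.58.1, R 4.3.3), as the study's methods name limma, two-sided, within each muscle over all ages and in a joint fit over the 325 libraries for muscle pairs and interactions. Calls needed a Benjamini-Hochberg adjusted p under 0.05 and over 1.5-fold. Log2 CPM of single libraries used a prior count of 0.5. Trends compared null, linear and logistic courses by BIC, which had to fall by over 6 for a trend and over 2 for logistic. Groups came from the labelled muscle and age. The code was tested on simulated data.

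The members and gene lists were chosen with earlier results of these data known. All members were named, with the largest called rise and fall of each partner list in each muscle (mean log2 CPM over 0), marker genes, and the 3 genes most like each member. Partner genes named in the text are a selection from those. The result of 1 partner gene is not reported here. Alternatives were edgeR, DESeq2 1.42.0, RLE and total-count scaling, no filter, a 2-fold threshold, Bonferroni adjustment, sample quality weights, a replicate block, and fits without the third-series libraries at 21 months or without 12 months. Chosen after seeing the data were the first gene line only and a fit without the 4 libraries that stood apart (the lowest median correlations within their groups). Depth was 17.6 to 85.3 M counts.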

Additional observations from a re-analysis of the deposited data

Results flagged for a closer look

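Of 24 combinations of a member and a group of 10 or fewer libraries, 3 had a single library far from the rest, where chance gives about 1 in 20, and all 3 were of the gastrocnemius, which alone has groups of that size. One at 6 months was the highest of 10 for Dcn, at 9.12 log2 CPM with the next at 8.87. One at 21 months was the lowest of 9 for Bgn, at 5.81 with the next at 6.34. One at 21 months was the highest of 9 for Omd, at 3.29 with the next at 2.64.

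The 6-to-27-month change differed from muscle to muscle by the interaction test (limma-voom, Benjamini-Hochberg) for 24 pairs of member and muscles, given here as the difference in log2 change, the first muscle minus the second, with its adjusted p. Gastrocnemius minus diaphragm gave 0.60 (3.75e-06) for Dcn, 0.85 (4.02e-05) for Bgn, 1.90 (8.02e-15) for Aspn, 1.18 (5.62e-12) for Lum, 1.18 (1.01e-07) for Omd and 1.71 (6.5e-13) for Ogn. Tibialis anterior minus diaphragm gave 1.58 (1.73e-14) for Bgn, 1.35 (1.03e-08) for Aspn, 0.93 (2.19e-08) for Lum, 0.92 (2.41e-06) for Prelp, 1.11 (6.54e-07) for Omd and 1.16 (3.16e-07) for Ogn. Soleus minus diaphragm gave 0.66 (4.76e-07) for Dcn, 0.79 (1.76e-06) for Lum and 1.03 (1.54e-05) for Ogn. These 15 contrasts share the diaphragm libraries. Soleus minus gastrocnemius gave -1.50 (2.5e-10) for Aspn, 0.75 (0.000135) for Prelp, -0.71 (0.00153) for Omd and -0.68 (0.00581) for Ogn. Tibialis anterior minus gastrocnemius gave 0.73 (0.00112) for Bgn and 1.15 (8.5e-08) for Prelp, and tibialis anterior minus soleus gave 1.20 (4.42e-09) for Bgn, 0.94 (4.96e-05) for Aspn and 0.64 (0.00494) for Omd.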

How the results depend on the processing

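Of 42 counts of members called against 6 months or between muscles, edgeR, DESeq2, RLE scaling, no filter and sample quality weights left each within 1.5 times, as did, where they applied, fits without third-series libraries or 12 months. A 2-fold threshold left, at 27 against 6 months, 1 member each in the diaphragm, gastrocnemius and tibialis anterior, in the gastrocnemius 0 at 18 and 21 and 1 at 24 months, with 0 for the tibialis anterior at 24 months. At 27 months it left 1 for gastrocnemius and 1 for tibialis anterior against diaphragm, 2 for soleus against diaphragm, 3 for soleus and 1 for tibialis anterior against gastrocnemius, and among the interactions 1 each for soleus against diaphragm and gastrocnemius and for tibialis anterior against gastrocnemius and soleus. Bonferroni adjustment left 0 in the gastrocnemius at 18 months, 1 for the tibialis anterior at 24 months, and 1 each for the last 3 of those interactions. Total-count scaling gave 2 in the soleus at 27 months, 2 age-related there, 0 there between 24 and 27 months, 1 in the tibialis anterior between 21 and 24 and 2 between 24 and 27 months, 4 for gastrocnemius and 7 for tibialis anterior against diaphragm at 27 months, and 5 for the interaction of soleus against diaphragm. The first line alone gave 1 in the tibialis anterior at 18 months and 4 for tibialis anterior against gastrocnemius at 27 months. Without the libraries that stood apart, 0 were called in the gastrocnemius at 18 months and 1 in the tibialis anterior at 24 months. Between neighbouring ages the counts were less stable, since edgeR took gastrocnemius 18 to 21 months (Fmod) and soleus 24 to 27 months (Omd) from 1 to 0, DESeq2 took the latter to 0, no filter took diaphragm 12 to 18 months from 0 to 1 (Fmod), the first line alone took soleus 12 to 18 months from 0 to 1 (Ogn), weights took diaphragm 9 to 12 (Fmod) and tibialis anterior 21 to 24 months (Bgn) from 0 to 1, and weights and leaving out the libraries that stood apart took tibialis anterior 24 to 27 months from 1 to 2 (Prelp).

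Sample quality weights ended the interaction of Dcn (gastrocnemius against diaphragm, 0.57) and of Ogn (soleus against gastrocnemius, -0.51), the first line alone that of Omd (tibialis anterior against soleus, 0.47), and leaving out the libraries that stood apart that of Dcn (0.58). Direction turned only for small values. Total-count scaling gave, at 27 against 6 months, 0.060 for Prelp in the gastrocnemius, 0.15 for Aspn and 0.030 for Fmod in the soleus, as interactions 0.18 for Fmod and 0.059 for Prelp (gastrocnemius against diaphragm), -0.070 for Dcn (soleus against gastrocnemius), 0.018 (tibialis anterior against gastrocnemius) and 0.087 (against soleus), and -0.28 for Prelp at 6 months (gastrocnemius against diaphragm). For Aspn in the soleus edgeR gave 0.025, DESeq2 0.020 and weights 0.0036, and weights gave 0.0086 for Prelp in the diaphragm. The interaction of tibialis anterior against gastrocnemius for Dcn was 0.0093 with DESeq2, 0.0074 with RLE, 0.022 with weights and 0.0041 without the libraries that stood apart, and for Omd 0.027 with DESeq2 and 0.053 with weights. Ogn at 6 months between these muscles was -0.048 with the first line alone. The cause of these changes was not tested.

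Same-numbered libraries of different muscles deviated together more than others (mean r 0.06 to 0.18 against -0.016 to -0.0047). Among diaphragm, soleus and tibialis anterior, 36 of 83, 42 of 83 and 43 of 84 libraries correlated best with their own number, a hint from the data, not the labels, that numbers may link them, while with the gastrocnemius it was 13 of 72, 13 of 73 and 19 of 73. At most 60 of 83 pairs had r over 0.1 and the lowest was -0.62, so the block stayed an alternative. The replicate block moved the count of members called in the gastrocnemius at 18 months from 1 to 0 and gained Fmod for tibialis anterior against diaphragm at 27 months and Dcn for that interaction. At these depths the SE of the 27-month log2 change in the gastrocnemius was 0.08 for Dcn, 0.16 for Omd, 0.18 for Aspn and 0.19 for Ogn.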
